A study of Homo sapiens with 12 samples.

Results

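Genes that encode the transcription factors and coactivators of mitochondrial biogenesis were examined at the mRNA level, namely NRF1, GABPA, GABPB1, ESRRA, YY1, PPARGC1A, PPARGC1B and PPRC1. They were chosen by gene name for this role and make up 8 of the 32077 genes in the count table. The poly(A)-selected RNA of PC3 and DU145, established androgen-independent lines of human prostate cancer, was sequenced after they had been kept for 48 hours with either vehicle or pentamidine at 2.5 μmol/L. Pentamidine is an aromatic diamidine used against protozoan parasites. The 4 groups were PC3 vehicle, PC3 pentamidine, DU145 vehicle and DU145 pentamidine, with 3 samples each and 12 in all. The genotype of both lines is labelled as wild type, all cells were grown as cultures of an established line, and there was 1 dose and 1 time point. The labels do not say that the 3 samples of a group were separate cultures, so p-values measure the spread between these samples, which may be technical.

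New mitochondria need proteins encoded in the nucleus as well as those encoded by mitochondrial DNA. NRF1 (nuclear respiratory factor 1) and GABP, a complex of the ETS-family subunit GABPα (GABPA) and the partner GABPβ1 (GABPB1), bind the promoters of many nuclear genes for the respiratory chain and for the copying and transcription of mitochondrial DNA. The orphan nuclear receptor ERRα (ESRRA) and the zinc finger protein YY1 bind further sets of these promoters. The PGC-1 family, made of PGC-1α (PPARGC1A), PGC-1β (PPARGC1B) and PRC (PPRC1), does not bind DNA itself and acts as coactivator on these factors.

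Total counts per library lay between 13514195 and 15131436. The share of counts on the mitochondrial genome was 3.79% to 3.91% in PC3 vehicle samples and 2.66% to 2.76% in PC3 pentamidine samples, and 4.41% to 4.66% and 1.97% to 2.07% in the corresponding DU145 samples. The epithelial keratins were present, with 238 to 307 counts of KRT8 in PC3 libraries and 25835 to 38812 in DU145 libraries, and KRT18 had at least 2125 counts in every library. Further epithelial markers were at or near 0, with at most 2 counts of EPCAM and 10 of CDH1 in any library of either line. The prostate genes KLK3 and KLK2 had at most 3 counts, the leukocyte gene PTPRC at most 1, the fibroblast gene COL1A2 at most 2, and the endothelial gene PECAM1 at most 10, while COL1A1 reached 40 counts in DU145 libraries. PC3 vehicle replicate 1 stood apart from the others of its group, with a chi-square averaging 5.98 and 7.3 per gene against replicates 2 and 3, which gave 3.64 against each other, where pairs in the other groups gave 1.72 to 3.13. In bulk RNA, fewer cells that express a gene and less RNA per cell cannot be told apart.

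Levels are given as CPM, the counts of a gene divided by the TMM-scaled library total and set to a common total for all libraries, and as CPM per kilobase of exon (the summed exon length of the gene in GENCODE release 29) where genes are compared with each other. Changes are log2 fold changes of pentamidine over vehicle with their standard error (SE), from the quasi-likelihood test of edgeR, with p-values adjusted by the Benjamini-Hochberg method over all genes tested. A gene was called at an adjusted p below 0.05. Of the 8 regulators, 7 passed the filter on low counts in each comparison, and PPARGC1A passed in none.

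In vehicle-treated cells of both lines, PPRC1 was the most abundant regulator per kilobase and the other members of its family were the least abundant. The level of PPRC1 was 32.4 ± 1.69 CPM per kb in PC3 and 40.7 ± 1.24 CPM per kb in DU145 (SD, n = 3). YY1 came next at 15.7 ± 1.85 and 19.8 ± 1.34 CPM per kb, respectively. GABPA and ESRRA followed, in this order in PC3, where their samples overlapped (12.9 ± 1.17 and 11.6 ± 0.487 CPM per kb), and in the opposite order in DU145, where they did not (10.1 ± 0.431 and 14.5 ± 0.193 CPM per kb). NRF1 and GABPB1 were close to each other in both lines, at 5.77 ± 0.264 and 5.53 ± 0.365 CPM per kb in PC3 and 5.86 ± 0.502 and 5.69 ± 0.216 CPM per kb in DU145, and their samples overlapped. PPARGC1B stood well under these, at 1.11 ± 0.164 CPM per kb in PC3 and 2.17 ± 0.26 CPM per kb in DU145. The lengths count the exons of all annotated transcripts, 12.9 kb for PPARGC1B and 6.1 kb for PPRC1, and the expressed transcripts were not separated. The order thus depends on these lengths. In CPM, the DU145 vehicle mean of PPARGC1B (27.9) was above that of NRF1 (24.2), with overlapping samples.

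After pentamidine the order per kilobase in DU145 was the same, and NRF1 and GABPB1 again overlapped there. In PC3 pentamidine samples ESRRA (12.5 ± 0.633 CPM per kb) and YY1 (12.4 ± 0.146 CPM per kb) overlapped in place 2 and 3, and NRF1 (4.98 ± 0.202 CPM per kb) lay under GABPB1 (6.13 ± 0.245 CPM per kb) with no overlap between these samples. The remaining neighbours in the order of each group did not overlap.

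**Figure D1:**
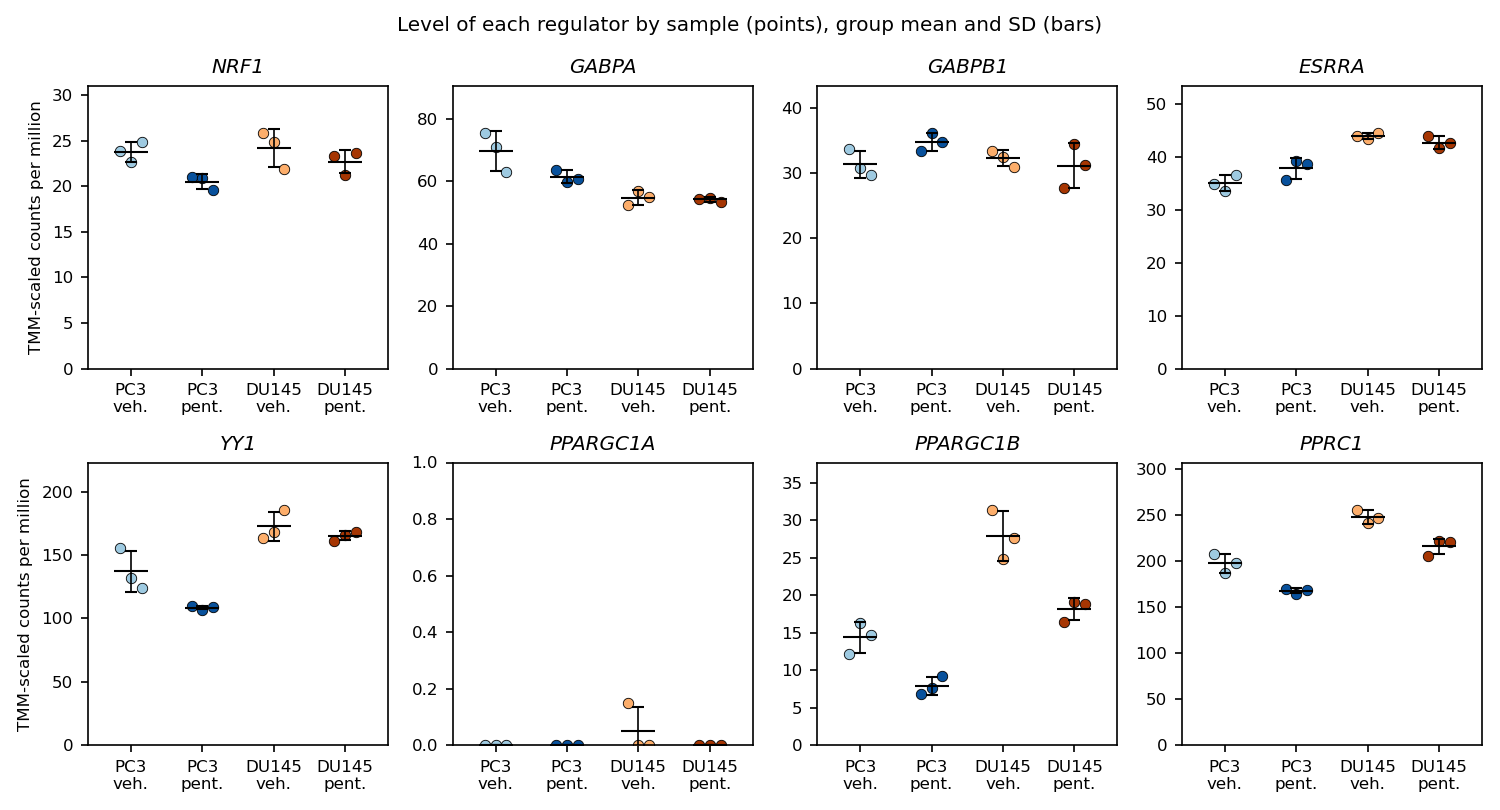
Level of each regulator in TMM-scaled CPM (vertical axes, each from 0) in the 12 samples, with points for samples and bars for the mean and SD of 3 samples. PPARGC1B fell from 12.1-16.3 to 6.81-9.18 CPM in PC3 and from 24.8-31.4 to 16.5-19.1 CPM in DU145, whereas PPARGC1A had counts in 1 library.

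To place the regulators in the genome, and because several of them act on promoters of nuclear genes, the deposited coordinates were set beside promoter sequences. The deposited table is on GRCh38 and gives NRF1 at chr7:129611714-129757082, GABPA at chr21:25734570-25772460, ESRRA at chr11:64305572-64316743, YY1 at chr14:100238298-100282792, PPARGC1B at chr5:149730298-149855022 and PPRC1 at chr10:102132994-102150331, all on the plus strand. GABPB1 lies at chr15:50275392-50355408 and PPARGC1A at chr4:23755041-23904089, both on the minus strand. RefSeq promoters (GRCh38.p14, from 250 bases before to 50 bases after the start site) were found for 7 of the 8 genes, with none for NRF1. The RefSeq starts of GABPA, GABPB1, YY1, PPARGC1B and PPRC1 used here lie inside the deposited gene spans. The start of ESRRA, at chr11:64305524, lies before its deposited span. PPARGC1A has starts at chr4:24472905, outside its deposited span, and at chr4:23881101, inside it. These windows were searched on both strands for letters that the regulators are known to bind: GCGCATGC for NRF1, CCGGAAG for GABP, TCAAGGTCA for ERRα and AAGATGGCG for YY1. No motif overlaps another in the stretches shown, and 3 of the 7 genes held one.

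The stretches below show where the promoter of one regulator holds letters bound by another, or by itself. Capitals mark the motif, each stretch has 30 bases and is written 5′ to 3′ on the plus strand, and positions count from the RefSeq start.
GABPA, GABP letters on the minus strand at -66: cctccgctctaCTTCCGGccctggctccgc
ESRRA, NRF1 letters on the minus strand at -29: ccccctgctttGCATGCGCacggccggccc
PPRC1, YY1 letters on the plus strand at 26: ttcaggggccAAGATGGCGgcgcgccgggg
Over all 35116 RefSeq promoters of this length, the same letters were found in 10.3% for GABP, 3.05% for NRF1, 1.75% for YY1 and 0.353% for ERRα. A match describes the sequence only, and binding was not measured.

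For pentamidine against vehicle, 4 of the 7 regulators tested were lower in PC3 (57.1%), namely PPARGC1B, YY1, PPRC1 and GABPA, and none was higher. Over all 13861 genes tested in PC3, 43.4% were called, 21.7% higher and 21.7% lower. In DU145, 2 of the 7 were lower (28.6%), PPARGC1B and PPRC1, and none was higher, beside 34.0% of all 14313 genes, 17.2% higher and 16.8% lower. The share of regulators called in either direction was thus near that of all genes in both lines. The share called lower was 57.1% beside 21.7% in PC3 and 28.6% beside 16.8% in DU145. With 7 genes these shares are coarse, and whether they differ was not tested. Groups did not overlap for 4 regulators in PC3 (NRF1, YY1, PPARGC1B and PPRC1) and for 2 in DU145 (PPARGC1B and PPRC1), beside 52.1% and 44.0% of all genes. A change of more than 1 on the log2 scale was called for 0 of the 7 in either line, by edgeR and by DESeq2, beside 4.75% of all genes in PC3 and 2.03% in DU145. With p unadjusted and below 0.05, 5 of the 7 passed in PC3, beside 50.3% of all genes, and 2 of the 7 in DU145, beside 42.7%, whatever the size of the change.

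**Figure D2:**
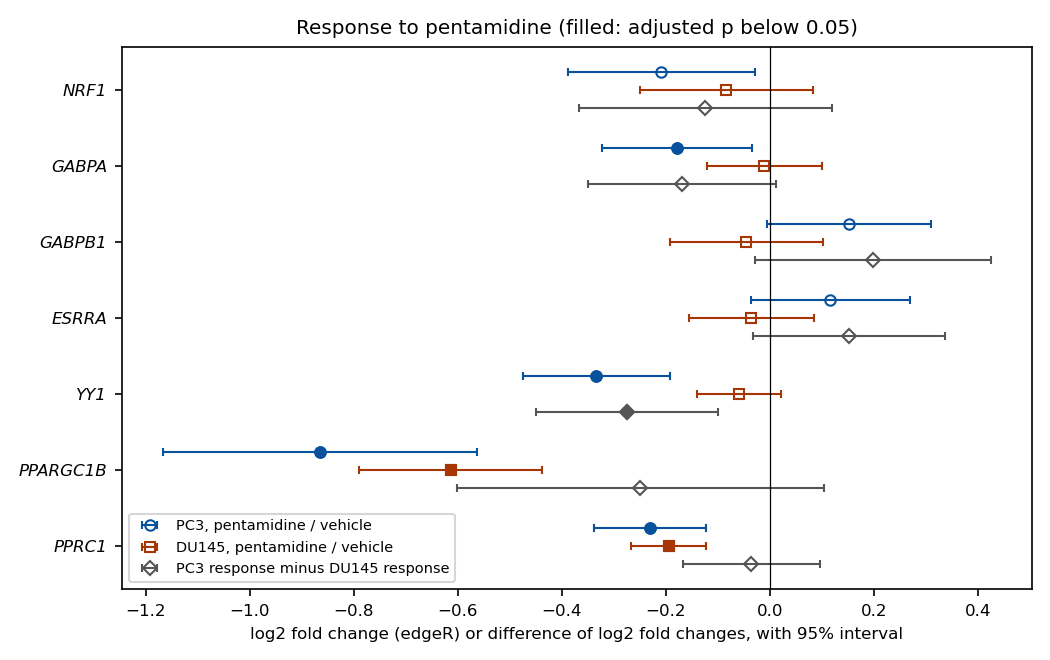
Log2 fold change of pentamidine over vehicle in PC3 (circles) and DU145 (squares), and the PC3 minus the DU145 change (diamonds), with 95% intervals (horizontal axis) for the 7 regulators tested; filled symbols have an adjusted p below 0.05. PPARGC1B is farthest to the left in both lines (-0.86 and -0.61), and YY1 alone has a filled diamond (-0.28).

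Among the PGC-1 coactivators, PPARGC1B fell in both lines. PGC-1β activates ERRα and NRF1 and is known for keeping up basal mitochondrial gene expression and fatty acid oxidation. In PC3 it had 179, 252 and 199 counts in the vehicle samples (12.1, 16.3 and 14.7 CPM) and 101, 107 and 136 counts in the pentamidine samples (6.81, 7.6 and 9.18 CPM). Every pentamidine sample was under every vehicle sample. The log2 fold change was -0.86 (SE 0.143, edgeR adjusted p = 0.000108), which is 0.549 times the vehicle level, with a 95% interval from -1.17 to -0.56.

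In DU145, PPARGC1B had 422, 354 and 401 counts with vehicle (31.4, 24.8 and 27.6 CPM) and 231, 282 and 271 counts with pentamidine (16.5, 19.1 and 18.8 CPM). Here too the groups did not overlap, and every DU145 sample was above every PC3 sample of the same treatment. The log2 fold change was -0.61 (SE 0.0875, edgeR adjusted p = 1.1e-07). The PC3 change minus the DU145 change was -0.25 with a 95% interval from -0.60 to 0.10, and the edgeR adjusted p of this difference was 0.345.

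PPRC1 encodes PRC, a coactivator of NRF1 that is induced by serum and links growth signals to respiratory gene expression. In PC3 it fell from 208, 187 and 197 CPM with vehicle to 170, 164 and 169 CPM with pentamidine, and in DU145 from 256, 241 and 247 CPM to 206, 221 and 220 CPM. All pentamidine samples were under all vehicle samples of the same line. The log2 fold changes were small, at -0.23 in PC3 (SE 0.0509, edgeR adjusted p = 0.00144) and -0.19 in DU145 (SE 0.0357, edgeR adjusted p = 1.72e-05). Their difference was -0.04, with a 95% interval from -0.17 to 0.10 (edgeR adjusted p = 0.759).

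PPARGC1A, which encodes the inducible PGC-1α of muscle, brown fat and liver, had 0 counts in 11 libraries and 2 counts in DU145 vehicle replicate 1. A count of 0 allows up to 3 counts, which is 0.198 to 0.222 CPM in these libraries and covers counting error only. Thus no comparison of PPARGC1A between groups could be made at this depth.

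The make-up of the family was also computed within each sample, where library scaling has no part. Since PPARGC1B fell by more than PPRC1, a lower share restates the changes above on another scale and is given as a description. PPARGC1B made up 2.69%, 3.96% and 3.39% of the family's reads per kilobase in PC3 vehicle samples and 1.86%, 2.14% and 2.5% in PC3 pentamidine samples. In DU145 it made up 5.49%, 4.64% and 5.02% with vehicle and 3.65%, 3.93% and 3.89% with pentamidine. The groups did not overlap in either line. The mean share differed by -1.18 percentage points in PC3 and -1.23 in DU145 per kilobase, and by -2.34 and -2.35 percentage points with raw reads in place of reads per kilobase. The exact two-sided permutation test gave p = 0.1 in both lines, the smallest p that 3 against 3 samples allow, so it could not pass 0.05. PPRC1 supplied nearly all the rest, from 94.5% to 98.1% in every sample.

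**Figure D3:**
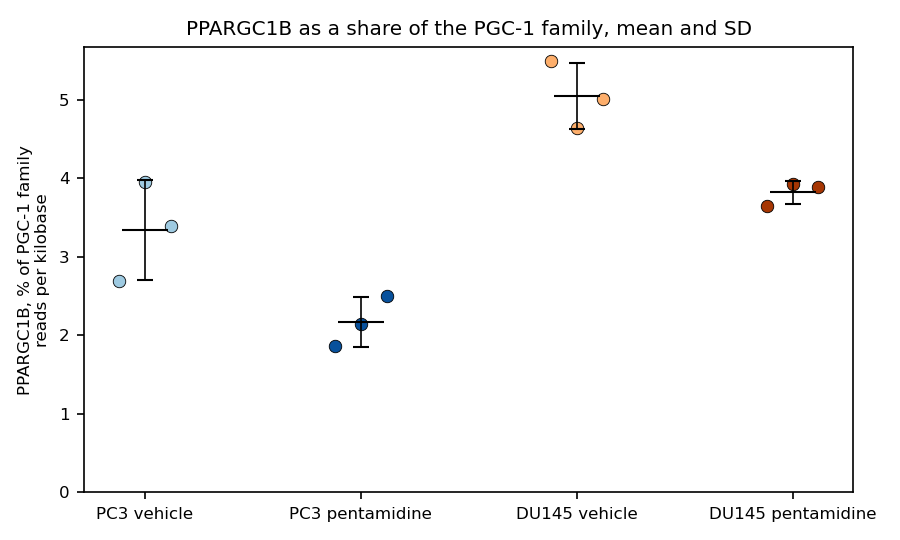
PPARGC1B as a percentage of the summed reads per kilobase of PPRC1, PPARGC1B and PPARGC1A (vertical axis, from 0) in each sample of the 4 groups, with bars for mean and SD of 3 samples. The share was 3.35% ± 0.637 with vehicle and 2.17% ± 0.322 with pentamidine in PC3, and 5.05% ± 0.426 and 3.82% ± 0.149 in DU145.

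Among the DNA-binding factors, YY1 changed in PC3. YY1 activates or represses many genes, and with PGC-1α it is known to control respiratory genes. It had 155, 132 and 124 CPM in PC3 vehicle samples and 109, 107 and 109 CPM in PC3 pentamidine samples. Vehicle replicate 1 was the highest, and the groups did not overlap. The log2 fold change was -0.33 (SE 0.067, edgeR adjusted p = 0.000656), which is 0.793 times the vehicle level. Without PC3 vehicle replicate 1, which stood apart over all genes, the change of YY1 was -0.24 (edgeR adjusted p = 0.000438). In the same fit PPARGC1B was at -0.98 and PPRC1 at -0.20, both called, and GABPB1 at 0.20 was called higher (edgeR adjusted p = 0.0495). NRF1 at -0.21 (edgeR adjusted p = 0.0736), GABPA at -0.13 (0.133) and ESRRA at 0.11 (0.294) were not called.

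In DU145, YY1 had 164, 168 and 186 CPM with vehicle and 161, 166 and 168 CPM with pentamidine, and the groups overlapped. The log2 fold change was -0.06 (95% interval from -0.14 to 0.02, edgeR adjusted p = 0.265). Whether the response of YY1 differed between the lines was tested on all 12 samples. The PC3 change minus the DU145 change was -0.28 (SE 0.085, edgeR adjusted p = 0.0208), and this was the 1 regulator of 7 called for this difference, beside 20.4% of all 15226 genes. The call was lost without PC3 vehicle replicate 1 (-0.17, adjusted p = 0.0654, edgeR), without DU145 vehicle replicate 1 (-0.23, adjusted p = 0.0773), without DU145 vehicle replicate 2 (-0.25, adjusted p = 0.0632) and without DU145 pentamidine replicate 3 (-0.26, adjusted p = 0.0532).

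NRF1, the activator of respiratory chain genes and of TFAM, was measured at 23.8, 22.7 and 24.9 CPM in PC3 vehicle samples and at 21, 21 and 19.6 CPM in PC3 pentamidine samples. The groups did not overlap, but the log2 fold change of -0.21 (SE 0.0849) missed the threshold (edgeR adjusted p = 0.0564), and its 95% interval, not adjusted for the number of genes, ran from -0.39 to -0.03. It passed when libraries were scaled by their totals alone (edgeR adjusted p = 0.039) and when all 12 samples were fitted together (edgeR adjusted p = 0.041). In DU145, NRF1 had 25.9, 24.8 and 21.9 CPM with vehicle and 23.3, 21.2 and 23.6 CPM with pentamidine, with overlapping groups. The log2 fold change there was -0.08 (95% interval from -0.25 to 0.08, edgeR adjusted p = 0.468).

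NRF1 was also the 1 regulator for which the study listed qPCR primers, which show the part of the transcript that assay reads. They are printed 5′ to 3′.
NRF1 forward: aggaacacggagtgacccaa
NRF1 reverse: tatgctcggtgtaagtagcca
Both matched 6 of the 7 NRF1 transcripts of GENCODE release 29 and no transcript of another gene, with a product of 102 bases. The forward primer lies at chr7:129657356-129657375 and the reverse primer at chr7:129657437-129657457 (GRCh38), within 1 exon, so genomic DNA holds a product of the same length. The study reported no significant change of NRF1 transcription in either line. The counts above sum reads over the whole gene, and the transcripts were not separated.

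GABPA, the DNA-binding subunit of GABP, was at 75.5, 71.2 and 63 CPM in PC3 vehicle samples and 63.8, 59.9 and 60.9 CPM in PC3 pentamidine samples. Vehicle replicate 3 lay under pentamidine replicate 1, so the groups overlapped. The log2 fold change of -0.18 (SE 0.0683) was just past the threshold (edgeR adjusted p = 0.0426). It missed the threshold by DESeq2 (adjusted p = 0.0671) and by edgeR with any sample other than vehicle replicate 3 left out (adjusted p from 0.0645 to 0.134). In DU145, GABPA had 52.4, 57 and 54.9 CPM with vehicle and 54.5, 54.7 and 53.5 CPM with pentamidine, a log2 fold change of -0.01 (95% interval from -0.12 to 0.10, edgeR adjusted p = 0.904).

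GABPB1, which carries the activation domain of the complex, was not called in either line. Its levels in PC3 were 33.7, 30.7 and 29.8 CPM with vehicle and 33.4, 36.2 and 34.8 CPM with pentamidine, a log2 fold change of 0.15 (95% interval from -0.01 to 0.31, edgeR adjusted p = 0.114). Without PC3 vehicle replicate 1 the value was 0.20 and passed (edgeR adjusted p = 0.0495). In DU145 the levels were 33.5, 32.5 and 31 CPM with vehicle and 27.7, 34.5 and 31.2 CPM with pentamidine, a log2 fold change of -0.05 (95% interval from -0.19 to 0.10, edgeR adjusted p = 0.68). The groups overlapped in both lines.

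ESRRA, the receptor through which PGC-1 proteins act on oxidative genes, was not called either. In PC3 it had 34.9, 33.6 and 36.5 CPM with vehicle and 35.6, 39.2 and 38.7 CPM with pentamidine, a log2 fold change of 0.12 (95% interval from -0.04 to 0.27, edgeR adjusted p = 0.212). In DU145 it had 43.9, 43.3 and 44.5 CPM with vehicle and 44, 41.6 and 42.6 CPM with pentamidine, a log2 fold change of -0.04 (95% interval from -0.16 to 0.08, edgeR adjusted p = 0.685). The groups overlapped in both lines.

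Whether the counting used the strand of the read is not given in the sources used here, and 3 of these genes share exon bases with a gene on the opposite strand. GABPA shares 7.61% of its exon bases with ATP5J, a subunit of ATP synthase (mean count 684.5 per library), GABPB1 shares 7.47% with the antisense RNA GABPB1-AS1 (417.9), and ESRRA shares 9.37% with TRMT112, a methyltransferase cofactor (2741.6). GABPB1-AS1 rose in both lines, from 35.3 ± 2.31 to 44.7 ± 5.22 CPM in PC3 (log2 fold change 0.34, SE 0.0848, edgeR adjusted p = 0.00331) and from 15.6 ± 1.08 to 19.8 ± 0.642 CPM in DU145 (0.34, SE 0.0924, edgeR adjusted p = 0.00272; SD, n = 3). ATP5J (-0.15 and -0.08) and TRMT112 (-0.06 and 0.08) were not called in PC3 or DU145. Reads of such pairs cannot be told apart where they overlap, and the part of the partners in the values of GABPA, GABPB1 and ESRRA was not tested.

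Comparing the lines without drug, 5 of the 7 regulators differed between PC3 and DU145 (71.4%), beside 65.3% of all 14394 genes. GABPA was higher in PC3 (1 of 7, beside 31.5% of all genes higher), and PPARGC1B, YY1, PPRC1 and ESRRA were lower (4 of 7, beside 33.8% lower). For the same 5 genes the groups did not overlap, beside 69.1% of all genes, and 0 of 7 were called with a change of more than 1 on the log2 scale, by edgeR and by DESeq2, beside 19.2%. With p unadjusted and below 0.05, the same 5 of 7 passed, beside 68.3% of all genes. PPARGC1B was nearest to that limit, at 14.4 ± 2.11 CPM in PC3 and 27.9 ± 3.34 CPM in DU145 (SD, n = 3), a log2 difference of -0.98 (SE 0.116, edgeR adjusted p = 1.47e-06). It passed the limit without PC3 vehicle replicate 2 (-1.08) and without DU145 vehicle replicate 2 (-1.06). YY1 (-0.36, SE 0.0702), PPRC1 (-0.35, SE 0.0491) and ESRRA (-0.35, SE 0.0664) were lower in PC3 by similar amounts, and GABPA was higher by 0.33 (SE 0.0688). NRF1 (-0.05, 95% interval from -0.23 to 0.14) and GABPB1 (-0.06, 95% interval from -0.22 to 0.09) were not called. These values share the vehicle samples with the treatment comparisons, so the 2 sets are only set side by side.

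For each regulator, the 3 genes with the most similar profile over the 12 samples were found among the 15226 genes that passed the filter, by the root mean square difference of log2 CPM profiles centred on their own means. For PPARGC1B these were PFKFB3, LYST and PCOLCE2, at 0.174 to 0.186, where PPARGC1B itself varied by 0.674 around its mean. PPRC1 was nearest to MTCL1, TNPO2 and DNAAF5 (0.0438 to 0.0467, against 0.209 for its own variation). YY1 was nearest to LNPEP, KIF18A and SMC3 (0.0558 to 0.0607, against 0.276), and ESRRA to TSPAN17, BRK1 and EWSR1 (0.0319 to 0.0512, against 0.139). GABPA was nearest to RBPJ, PNISR and GPBP1 (0.0537 to 0.0591, against 0.16). For NRF1 (MAEA, NDRG3 and NSD2, from 0.0586) and GABPB1 (RIMKLB, ARFGEF2 and LRCH3, from 0.0636) the nearest differences were large beside their own variation of 0.116 and 0.104.

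Genes around the regulators were then counted in 4 lists with 134 entries. Of the 24 partners and family members (other receptors, forkhead, MEF2 and CREB factors that work with PGC-1 proteins), 20 passed the filter, and ESRRB, ESRRG, ZFP42 and HNF4A had at most 5 counts in any library. In PC3, 6 of the 20 were higher and 3 lower upon pentamidine treatment, and in DU145 7 were higher and 3 lower. Over all genes tested, 21.7% were higher and 21.7% lower in PC3, and 17.2% and 16.8% in DU145. The median log2 fold change was 0.07 in PC3 and 0.08 in DU145, beside 0.0046 and 0.0085 over all genes tested. FOXO3, a forkhead factor of the stress response, rose in PC3 from 34.4 ± 1.83 to 63.3 ± 4.56 CPM (log2 fold change 0.89, SE 0.0716, SD with n = 3). NFE2L2, the antioxidant factor NRF2, which is not a subunit of GABP, rose from 113 ± 3.04 to 191 ± 3.64 CPM (0.76, SE 0.0507), and MEF2D by 0.45 (SE 0.0704). FOXO3 (0.18), NFE2L2 (0.20) and MEF2D (0.18) were called higher in DU145 as well, by smaller amounts, and the FOXO3 groups overlapped there. In DU145 the nuclear receptors PPARG, NR1H3 and PPARA rose by 1.11 (SE 0.447), 0.55 (SE 0.186) and 0.45 (SE 0.134). PPARG, under 1 CPM on average in both groups, was just past the threshold (edgeR adjusted p = 0.0485). PPARA rose by a similar amount in PC3 (0.44, edgeR adjusted p = 0.00111), while NR1H3 (0.24) was not called there. In PC3, where the vehicle level of PPARG was higher than in DU145 by 6.27 on the log2 scale, PPARG fell by 0.31 (SE 0.0767, edgeR adjusted p = 0.00351). The PC3 change of PPARG minus the DU145 change was -1.42 (edgeR adjusted p = 0.00409). The DU145 count of 10 called genes was 5 by DESeq2.

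Of the 32 upstream enzymes and coregulators (AMPK subunits, sirtuins, acetyltransferases, corepressors), all passed the filter. In PC3 10 were higher and 5 lower, with a median log2 fold change of 0.10, and in DU145 6 were higher and 10 lower, with a median of -0.02. These counts stand beside 21.7% of all genes higher and 21.7% lower in PC3, and 17.2% and 16.8% in DU145. NCOA3, a coactivator of nuclear receptors, fell in PC3 from 618 ± 40.1 to 305 ± 3.72 CPM (log2 fold change -1.02, SE 0.0523, edgeR adjusted p = 7.42e-11). It fell by less in DU145 (-0.22, edgeR adjusted p = 1.06e-06). The AMPK subunit PRKAB2 rose by 0.52 (SE 0.0669) and the coactivator NCOA1 by 0.46 (SE 0.121) in PC3. PRKAB2 was also called higher in DU145 (0.24, edgeR adjusted p = 0.000767), while NCOA1 (0.12) was not. The other AMPK subunits went both ways. PRKAG1 was called higher in PC3 (0.39) and DU145 (0.15), and PRKAB1 (0.35) and PRKAG2 (0.33) were called higher in PC3 only. PRKAA1 was called lower in PC3 (-0.22, with overlapping groups) and DU145 (-0.15), and PRKAA2 in DU145 only (-0.20, with overlapping groups). In DU145 the corepressor NRIP1 (RIP140) fell by 0.52 (SE 0.0597), and CRTC1, a coactivator of CREB, and SIRT3, the mitochondrial deacetylase, rose by 0.37 (SE 0.0689) and 0.32 (SE 0.0829). CRTC1 rose by a similar amount in PC3 (0.38, edgeR adjusted p = 0.00132), while NRIP1 (0.23) and SIRT3 (0.19) were not called there.

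Of the 45 target genes of NRF1 and GABP, all passed the filter. In PC3 5 were higher and 11 lower, with a median log2 fold change of -0.06, and in DU145 7 were higher and 11 lower, with a median of -0.02. The 29 genes in PC3 and 27 in DU145 that remain were not called. Shares over all genes were 21.7% higher and 21.7% lower in PC3, and 17.2% and 16.8% in DU145. TFAM, which packages mitochondrial DNA and starts its transcription, fell from 161 ± 13.9 to 118 ± 4.88 CPM in PC3 (log2 fold change -0.44, SE 0.0606, edgeR adjusted p = 1.67e-05) and from 144 ± 3.47 to 127 ± 4.13 CPM in DU145 (-0.18, SE 0.0396, edgeR adjusted p = 0.000238). The groups did not overlap in either line. The study reported no significant change of TFAM transcription in these lines, in a sentence that follows its qPCR results. Its qPCR values were normalized to β-actin, and its sequencing calls also required a log2 fold change above 1 in size. Neither TFAM change above reaches that size, so the report of the study and these values differ in measure or threshold. The reason for this difference was not tested. POLRMT, the mitochondrial RNA polymerase, fell in these counts as well, by 0.32 (SE 0.0574) in PC3 and by 0.14 (SE 0.0394) in DU145. TFB2M, which works with both, fell in DU145 (-0.36, SE 0.0747) and was at -0.15 in PC3 (edgeR adjusted p = 0.24), while the rRNA methyltransferase TFB1M was at 0.10 and -0.08 and was not called in either line. SDHA of complex II fell in both lines (-0.50 and -0.46), although near-identical pseudogenes make its counts uncertain. In PC3 SDHD fell by 0.46 (SE 0.0779), and the chaperone HSPE1, whose exons are shared with a read-through transcript, by 0.67 (SE 0.156), while SURF1, an assembly factor of complex IV, rose in DU145 by 0.39 (SE 0.1). SURF1 was also called higher in PC3 (0.26, edgeR adjusted p = 0.0402), with overlapping groups. SDHD (0.01) and HSPE1 (-0.20) were not called in DU145.

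Of the 33 target genes of PGC-1 and ERR, 29 passed the filter, and CPT1B, ACADL, PDK4 and PCK1 had at most 13 counts in any library. In PC3 4 were higher and 6 lower, with a median log2 fold change of -0.08, and in DU145 7 were higher and 7 lower, with a median of -0.01. Among all genes tested, 21.7% were higher and 21.7% lower in PC3, and 17.2% and 16.8% in DU145. PCK2, the mitochondrial form of PEP carboxykinase, rose from 29.3 ± 2.3 to 237 ± 3.11 CPM in PC3 (log2 fold change 3.02, SE 0.0622) and from 21.3 ± 2.03 to 88.5 ± 4.09 CPM in DU145 (2.06, SE 0.0629). PCK2 was listed beside the related PCK1, which had at most 1 count in any library. PCK2 and the growth factor gene VEGFA (1.53 in PC3 and 1.14 in DU145) are known targets of the amino acid stress response. Which regulator acted on them here was not tested. CAT, encoding catalase, rose by 0.93 (SE 0.0643) in PC3, and SOD2, the mitochondrial superoxide dismutase, fell in DU145 from 486 ± 10 to 160 ± 5.15 CPM (-1.60, SE 0.0344). CAT also rose in DU145 (0.41, edgeR adjusted p = 6.28e-07), while SOD2 was not called in PC3 (-0.08). The highest gains in this list thus sat beside a median near that of all genes.

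**Figure D4:**
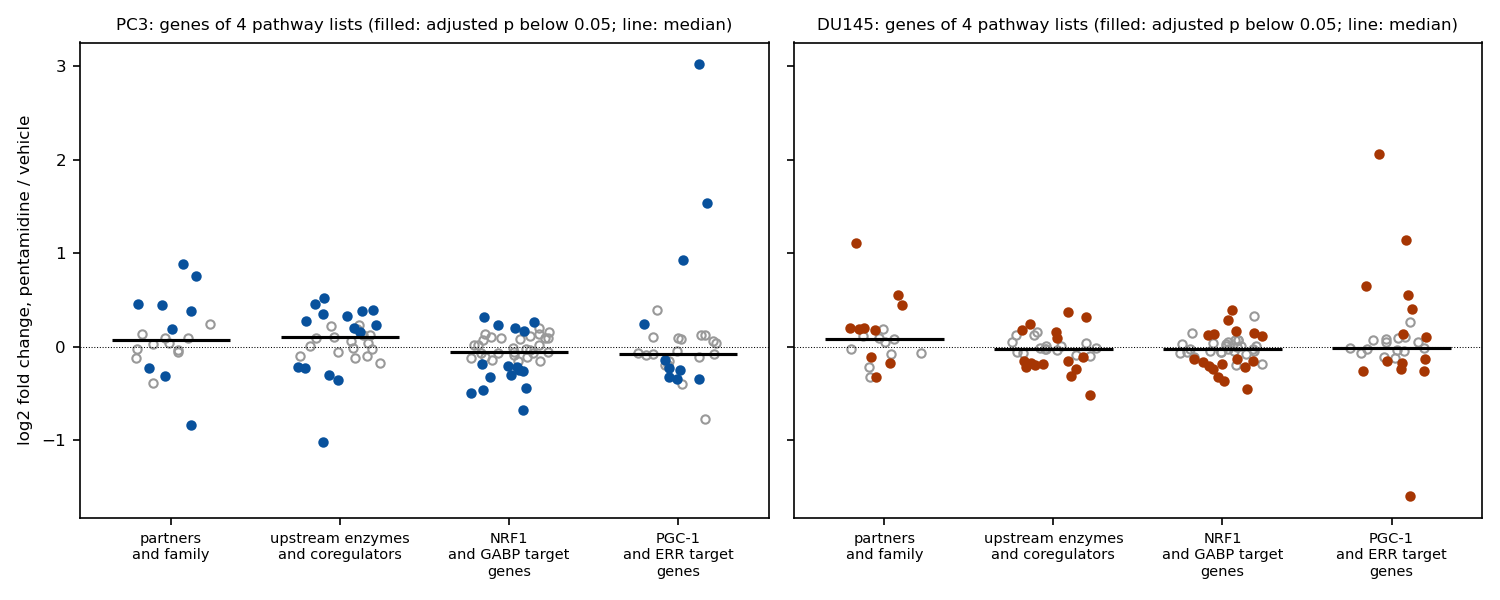
Log2 fold change of pentamidine over vehicle (vertical axis) for the tested genes of the 4 lists in PC3 (left) and DU145 (right), with filled points for an adjusted p below 0.05 and a line at the median. The medians lie between -0.08 and 0.10, with PCK2 at 3.02 and 2.06 as the highest point of each panel.

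Tests of the difference between lines called 5 list genes higher and 1 lower among the partners, 10 and 4 among the upstream enzymes, 3 and 3 among the targets of NRF1 and GABP, and 4 and 4 among the targets of PGC-1 and ERR, where higher means a more positive change in PC3. The tested genes of these lists numbered 20, 32, 45 and 29, and 20.4% of all genes were called for this difference, in either direction.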

How the data were processed

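Poly(A)-enriched RNA of 12 samples was sequenced as paired reads. The deposited table holds raw counts of reads for each gene. The submitters' processing notes name HISAT2 2.1.0, GRCh38 and DESeq 1.18.1, while the counting program, its annotation and its use of strand are not given in the sources used here. Deposited tables of the authors' own comparison (log2 fold changes and p-values) and a table named for FPKM were not used. No value column lacked a sample (0).

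Entries with the same name and counts were kept once, leaving 32077 genes. Counts were tested with edgeR 4.0.16 in R 4.3.3 (quasi-likelihood test, TMM, filterByExpr at a minimum count of 10, Benjamini-Hochberg adjustment), with each line on its own, the vehicle samples between lines, and all 12 samples for the difference in response. The code was tested on simulated data. At these depths (13514195 to 15131436 counts) a count of 0 allows up to 3 counts. Intervals cover counting error and sample spread only.

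The members and lists were chosen with earlier results of these data known. Named were all 8 members, TFAM, TFB1M, TFB2M, POLRMT, the 3 nearest profiles per member (pseudocount 0.1 CPM), and per list and line up to 3 genes with the largest log2 fold change among genes called with no overlap between groups. GABPB1-AS1, ATP5J and TRMT112 were named for sharing exons with members. Alternatives were DESeq2 1.42.0, RLE, library size alone, no mitochondria-encoded genes, 2 other filters, a replicate block, limma 3.58.1 on log2(CPM + 1) and log2(CPM + 0.1), all 12 samples in 1 fit, a fold change limit, raw reads in the family share, and each sample left out.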

Additional observations from a re-analysis of the deposited data

Results flagged for a closer look

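YY1 was picked out because its response to pentamidine differed between the lines in a test of the difference itself. The PC3 change minus the DU145 change was -0.276 on the log2 scale (SE 0.085, edgeR adjusted p = 0.0208), from -0.33 in PC3 and -0.06 in DU145. All 3 PC3 pentamidine samples were under all 3 PC3 vehicle samples, while the DU145 groups overlapped. The call was lost without any one of 4 samples, PC3 vehicle replicate 1 (-0.17, edgeR adjusted p = 0.0654), DU145 vehicle replicate 1 (-0.23, 0.0773), DU145 vehicle replicate 2 (-0.25, 0.0632) and DU145 pentamidine replicate 3 (-0.26, 0.0532).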

How the results depend on the processing

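Of 476 values of the members under alternatives, 452 kept their direction and side of the threshold, 11 lost the call, 4 gained it and 9 turned sign, each of the 9 without a call. With libraries scaled by their totals alone, the DU145 changes of GABPA, GABPB1 and ESRRA became 0.0388, 0.00439 and 0.0134, and the differences of NRF1 and GABPB1 between lines became 0.033 and 0.0157. With single samples left out, values ran from -0.0482 to 0.0182 (GABPA, DU145), -0.132 to 0.0282 (GABPB1, DU145), -0.0687 to 0.00697 (PPRC1, difference in response) and -0.116 to 0.0011 (NRF1, between lines). With a fold change limit of 1 on the log2 scale, 0 members were called in PC3 (4 without it) and 0 in DU145 (2 without it). With each sample left out in turn, 3 to 4 members were called in PC3, 2 in DU145, 5 between lines, and 0 to 2 for the difference in response. For that difference, GABPA joined YY1 without PC3 vehicle replicate 3 (-0.23, edgeR adjusted p = 0.0422). Without PC3 vehicle replicate 1, GABPB1 was called higher in PC3 and GABPA was not called. In the family share, raw reads in place of reads per kilobase gave differences of -2.34 percentage points in PC3 and -2.35 in DU145. By DESeq2, 5 of the partners and family members were called in DU145, against 10 by edgeR. The cause was not tested in any of these cases.

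Deviations of same-numbered samples from their group means had correlations from -0.0733 to 0.0388. Vehicle and pentamidine samples of a line with different numbers gave -0.0811 to 0.0847. Correlations this small cannot show whether same-numbered samples were prepared together, and the main tests treated samples as unpaired. With the replicate block, 3 members were called in PC3, 2 in DU145, 1 for the difference in response and 5 between lines, and the value for GABPA in PC3 was -0.18 (edgeR adjusted p = 0.0531). Depth leaves PPARGC1A without a comparison.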
